A study of Mus musculus with 6 samples.

Results

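The EGF family and its ErbB receptors were taken as 10 of the 24063 gene symbols in the deposited files. They were 7 ligand genes, Egf, Tgfa, Areg, Ereg, Btc, Hbegf and Epgn, and 3 receptor genes, Egfr, Erbb2 and Erbb3, picked by name as members of the family. A symbol listed with several RefSeq transcripts was represented by the transcript with the highest mean count. All 10 were among the 16336 genes that passed the filter on low counts. The 6 samples were 3 spontaneous penile tumors from SA mice (PB-Cre+ Smad4L/L ApcL/L) and 3 samples of normal penile epithelium from wild type (WT) C57BL/6 mice, with an age of 5 months in both groups. Total RNA was sequenced as stranded, paired-end libraries, and no carcinogen was given. In the SA mice, Cre is expressed from the androgen-responsive probasin promoter and deletes Smad4 and Apc in epithelial cells that use that promoter. WT mice have neither deletion, and the strain background of the SA mice is not given in the sources used here, so Cre, the alleles, the background and the tumor state cannot be told apart. The labels name 3 SA mice but no number of WT mice, and the p-values below measure the spread between samples, part of which may be technical.

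The gene rows held between 23828283 and 110509147 counts a library, and the library of SA tumor 3 held 4.42 times the median count of the others. Levels are given as counts per 1000000 after TMM scaling (CPM), which compare samples, and as the deposited transcripts per 1000000 (TPM), which also divide by transcript length and compare genes. A gene was called changed where edgeR's quasi-likelihood F-test gave an adjusted p under 0.01, and past both thresholds where its log2 fold change was also at least 2 in size. Of the 16336 genes tested, 20.1% were called higher and 17.5% lower in SA tumors, 13% passed both thresholds, and the median log2 fold change was 0.03. Of the deleted genes, Smad4 stood at 36.6, 36.1 and 46.1 CPM in SA tumors and at 61.2, 69.7 and 72.5 in WT penises (log2 fold change -0.77, adjusted p = 0.00114). Apc stood at 253, 194 and 197 CPM in SA tumors and at 62.5, 85.3 and 91.1 in WT penises (log2 fold change 1.43, adjusted p = 0.000185). A count over the whole transcript does not resolve the deleted exons, so neither value checks the deletion. Epithelial markers were present in both groups. Krt5, a basal keratin, was between 3071 and 3587 CPM in SA tumors and between 7458 and 7814 in WT penises. Cdh1, the epithelial cadherin, was between 389 and 474 in SA tumors and between 406 and 437 in WT penises. These levels do not check how pure the epithelium was. Of 6 basal markers 3 fell and 1 rose, and smooth muscle markers summed to 1476 to 1966 CPM in WT penises and to 34.9 to 120.3 in SA tumors.

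EGF family ligands are made as membrane-anchored precursors and are released by metalloproteases. Egf, Tgfa, Areg and Epgn bind the EGF receptor, whereas Hbegf, Btc and Ereg bind it and also ErbB4. A bound receptor pairs with another ErbB receptor, and their kinases start the RAS-ERK and PI3K cascades. ErbB2 has no known ligand and serves as the preferred partner, and ErbB3, which binds neuregulins, has little kinase activity of its own and signals through such partners. In stratified squamous epithelium the pathway is known for keratinocyte growth, migration and wound repair.

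Areg (NM_009704), Ereg (NM_007950), Epgn (NM_053087) and Btc (NM_007568) lie together on mouse chromosome 5 (GRCm38, the assembly that mm10 names; positions here are from RefSeq). Epgn spans 91027517 to 91035212, Ereg 91074617 to 91093649 and Areg 91139599 to 91148432 on the forward strand, and Btc spans 91357261 to 91402994 on the reverse strand. The start of Ereg is 47.2 kb from that of Epgn, the start of Areg is 65.0 kb further, and that of Btc another 263.4 kb. The 250 bases before the start of Areg and of Btc are shown because Areg was the member with a positive log2 fold change and Btc was the ligand with the smallest adjusted p. Both are printed 5′ to 3′ on the strand of the gene, from chr5:91139349-91139598 for Areg and from chr5:91402995-91403244 for Btc. Capitals mark, in order, matches to the cyclic AMP response element (CRE, TGACGTCA), the GC box (GGGCGG) and the TATA box (TATAAA).
Areg: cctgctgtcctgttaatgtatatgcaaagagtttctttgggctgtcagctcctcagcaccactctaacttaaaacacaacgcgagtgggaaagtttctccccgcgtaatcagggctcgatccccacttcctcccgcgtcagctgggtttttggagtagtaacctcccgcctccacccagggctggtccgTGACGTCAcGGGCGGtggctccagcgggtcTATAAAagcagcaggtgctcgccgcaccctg
Btc: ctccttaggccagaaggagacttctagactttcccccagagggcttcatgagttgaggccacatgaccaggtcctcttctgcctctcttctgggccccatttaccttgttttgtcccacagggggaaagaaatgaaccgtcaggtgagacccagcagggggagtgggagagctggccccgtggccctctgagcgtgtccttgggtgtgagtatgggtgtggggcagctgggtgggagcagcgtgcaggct
In the Areg window the CRE began 61, the GC box 52 and the TATA box 31 bases before the start. The Btc window held no match to these or to the other motifs searched, the TCF/LEF motif CTTTGAT, the AP-1 motif TGANTCA and the Smad palindrome GTCTAGAC. Both strands were searched, and no pair of matches overlapped. Among 32851 such windows of annotated starts, 1.5% held the CRE, 32.7% the GC box, 12.4% the TATA box, 3.2% the TCF/LEF motif, 6.7% the AP-1 motif and 0.167% the Smad palindrome. The 8 windows found for 7 of the members (Egf has a pair) held the GC box in 3, the TATA box in 2 and the CRE in 1. These matches are descriptions of letters and not sites of binding.

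At the adjusted p, 5 of the 10 members were lower in SA tumors, against 17.5% of all genes tested. They were Erbb2, Btc, Erbb3, Ereg and Egf. No member was called higher by edgeR, against 20.1% of genes, although 1 member, Areg, was higher at an unadjusted p under 0.05. DESeq2 called 1 member higher, again Areg, and limma-voom called 0. Past both thresholds were 0 members, against 13% of genes, by edgeR, DESeq2 and limma-voom, and the count was also 0 at an unadjusted p with the same fold. The log2 fold change was negative for 9 members, with a median of -0.59, while 48.3% of all genes tested had a negative value. CPM did not overlap between the groups for 8 members, as for 63.4% of the genes tested. In bulk tissue, fewer cells of a type and less RNA in each cell cannot be told apart, and this holds for every value here.

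**Figure D1:**
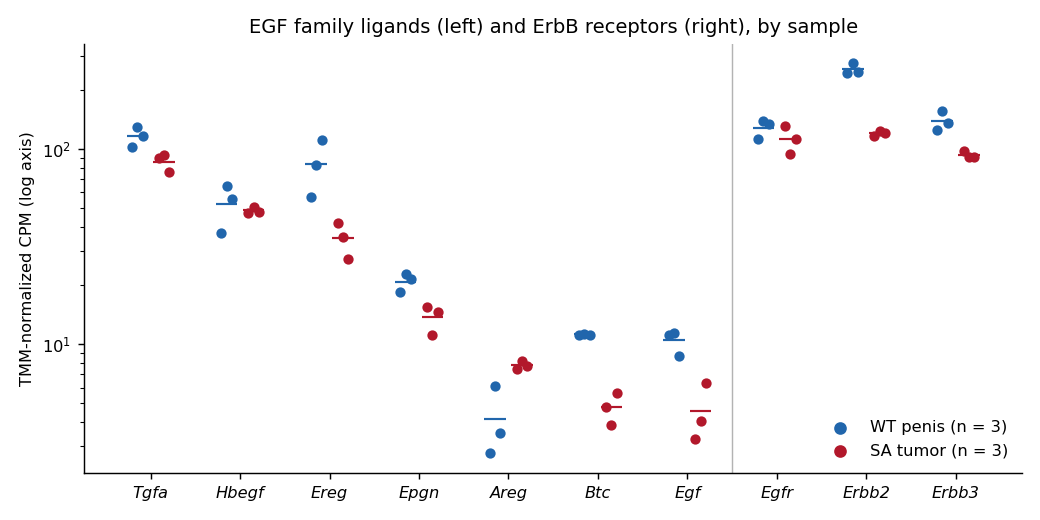
TMM-normalized CPM (log axis) of the 7 ligands and 3 receptors in each of 3 WT penises (blue) and 3 SA tumors (red), with the mean of each group as a line. The Erbb2 values of the SA tumors, 117 to 123 CPM, lie well apart from those of the WT penises, 246 to 274, while the values of Hbegf and Egfr overlap.

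Among the receptors, Erbb2 (NM_001003817, chromosome 11, 98412484 to 98437716) had the smallest adjusted p of all members. Its level was 117, 123 and 121 CPM in SA tumors and 246, 274 and 249 in WT penises. The samples within each group lay close together and the groups did not overlap. The mean fell from 256 ± 15.6 CPM (SD, n = 3) to 120.3 ± 3.15, a log2 fold change of -1.09 with a 95% interval of -1.30 to -0.88 (adjusted p = 3.01e-05), or 2.13-fold lower. The call held in all 17 alternatives tried, with log2 fold changes between -1.13 and -0.81.

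Erbb3 (NM_010153, chromosome 10, 128567523 to 128589635), the neuregulin receptor, stood at 98.1, 91.1 and 90.9 CPM in SA tumors and at 125, 156 and 136 in WT penises. All SA tumors were below all WT penises. The fall was 1.49-fold, a log2 fold change of -0.57 with an interval of -0.82 to -0.33 (adjusted p = 0.00214). With library totals in place of TMM scaling, the log2 fold change was -0.29 and the call was lost (adjusted p = 0.0507). Erbb3 is also used by Schwann cells, the glia of nerves, and of the 4 Schwann cell markers 3 fell past both thresholds. Sox10, which defines the lineage, stood between 0.0743 and 0.397 CPM in SA tumors and between 5.74 and 6.47 in WT penises. Their part in the Erbb3 difference was not tested.

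Egfr (NM_207655, chromosome 11, 16752203 to 16913907), the receptor of the ligands described here, was not called changed. Its level was 131, 94.8 and 112 CPM in SA tumors and 112, 139 and 134 in WT penises. The groups overlapped. The log2 fold change was -0.19 with an interval of -0.50 to 0.13 (adjusted p = 0.291), and it was 0.10 with library totals, so that no direction can be given. A shorter Egfr transcript, NM_007912, has a row of its own, and how reads that fit both transcripts were assigned was not tested. Its counts were 35.6%, 34.4% and 36.8% of those of NM_207655 in SA tumors and 30.2%, 32.8% and 33.4% in WT penises. These shares did not overlap, and an exact two-sided permutation test gave p = 0.1, the smallest that 3 samples against 3 allow. This share was compared after the values had been seen.

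Ratios within a sample do not depend on library scaling. The log2 ratio of Erbb2 to Egfr TPM was 0.09, 0.63 and 0.36 in SA tumors and 1.38, 1.24 and 1.15 in WT penises, a difference of -0.90 (exact two-sided permutation p = 0.1). The log2 ratio of Erbb3 to Egfr was 0.15, 0.51 and 0.27 against 0.72, 0.74 and 0.60, a difference of -0.38 (exact permutation p = 0.1). Both ratios were lower in every SA tumor than in every WT penis, and this design cannot give a p below 0.1 for either. As shares of the summed TPM of the 3 receptors, Egfr made up 28.4% ± 3.20 (SD, n = 3) in SA tumors and 20.0% ± 1.06 in WT penises. For Erbb2 the shares were 36.5% ± 2.76 and 47.8% ± 1.54, and for Erbb3 35.1% ± 0.710 and 32.2% ± 0.938. Shares of a sum are tied to one another and were not tested. They take Egfr from NM_207655 alone. With NM_007912 added, the Egfr share would be larger, and those of Erbb2 and Erbb3 smaller, in every sample.

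**Figure D2:**
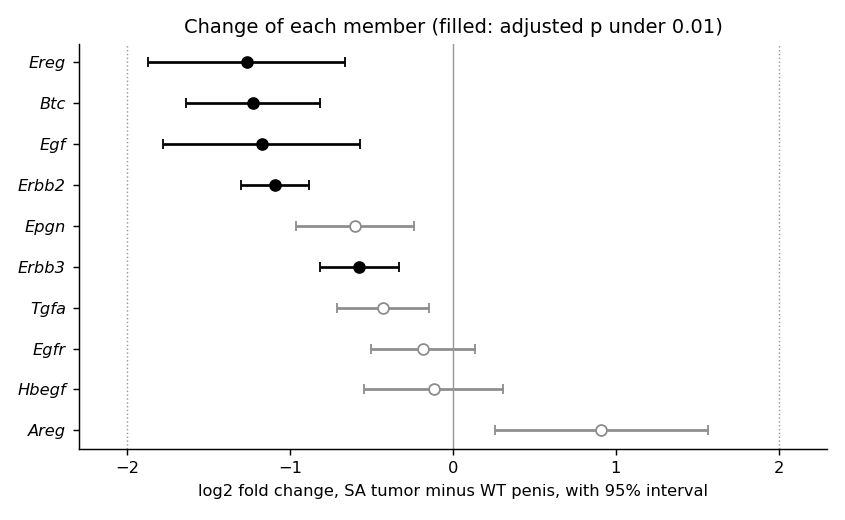
Log2 fold change between SA tumors and WT penises for each member with its 95% interval, filled where the adjusted p is under 0.01, with dotted lines at the fold threshold of 2 in either direction. The values run from -1.27 for Ereg to 0.91 for Areg, and no interval reaches a dotted line.

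Among the ligands of the chromosome 5 cluster, Ereg and Btc fell, and the values of Epgn and Areg did not pass the test. Ereg, the gene of epiregulin, stood at 42.0, 35.4 and 27.2 CPM in SA tumors and at 56.6, 83.1 and 111 in WT penises. The WT samples spread widely, yet each was above every SA tumor. The mean was 34.8 ± 7.43 CPM (SD, n = 3) against 83.6 ± 27.3, a 2.41-fold fall and a log2 fold change of -1.27 with an interval of -1.87 to -0.66 (adjusted p = 0.00459). The call was lost without SA tumor 2 (adjusted p = 0.0211), without WT penis 2 (0.0143) and with library totals (0.0136).

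Btc, the gene of betacellulin, stood at 4.79, 3.87 and 5.63 CPM in SA tumors, from 117 to 693 counts, and at 11.2, 11.3 and 11.2 in WT penises, from 246 to 339 counts. The WT samples were nearly equal and lay above all SA tumors. Its 2.34-fold fall had a log2 fold change of -1.23 with an interval of -1.64 to -0.82 (adjusted p = 0.000613), and it was called in all 17 alternatives.

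Epgn, the gene of epigen, stood at 15.5, 11.2 and 14.6 CPM in SA tumors and at 18.5, 22.8 and 21.5 in WT penises. The groups did not overlap, but the log2 fold change of -0.60, with an interval of -0.97 to -0.24, missed the threshold (adjusted p = 0.0121). It was called without SA tumor 1, at an adjusted p of 0.00933 and a log2 fold change of -0.70, and also by DESeq2 and with no filter on low counts.

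Areg, the gene of amphiregulin, was the member whose SA samples were all above the WT samples. It stood at 7.51, 8.21 and 7.74 CPM in SA tumors and at 2.76, 6.11 and 3.51 in WT penises. The SA samples were close together, and WT penis 2 was well above the other WT samples. The mean was 7.82 ± 0.358 CPM (SD, n = 3) in SA tumors and 4.12 ± 1.76 in WT penises, a log2 fold change of 0.91 with an interval of 0.26 to 1.56 that missed the threshold (adjusted p = 0.0258). Without WT penis 2 the log2 fold change was 1.30 and was called (adjusted p = 0.00399), as it was by DESeq2 (0.00543) and with library totals (0.00867). Over the 17 alternatives the adjusted p ran from 0.00399 to 0.0844. The log2 ratio of Areg to Ereg TPM, chosen after the values had been seen, was -0.70, -0.32 and -0.02 in SA tumors and -2.57, -1.98 and -3.20 in WT penises. These neighbouring genes thus differed in their ratio by 2.24 on the log2 scale, without overlap (exact two-sided permutation p = 0.1, the smallest possible).

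The genes around this cluster were counted as those with a transcript start within 500 kb of Areg, Ereg, Epgn or Btc. Of 13 such genes 10 were tested, and 8 of them rose in SA tumors, against 20.1% of all genes, with a median log2 fold change of 4.0 over the 10. Past both thresholds were the neutrophil-attracting chemokine genes Cxcl5 (log2 fold change 3.62), Ppbp (4.39), Cxcl3 (4.92), Cxcl1 (2.45) and Cxcl2 (6.91), the androgen-regulated mucin-like gene Parm1 (4.40), and 5830473C10Rik (5.15). Parm1, whose start is 114.6 kb from that of the nearest ligand gene, stood at 107, 73.1 and 89.2 CPM in SA tumors and at 3.44, 5.11 and 4.10 in WT penises. Markers of granulocytes moved with the chemokine genes: 5 of 5 rose, from a sum of 56.6 to 120.2 CPM in WT penises to 1426 to 2488 in SA tumors, and their part was not tested. Within the stretch, no ligand gene was called higher by edgeR.

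Egf itself (NM_010113, chromosome 3, 129677574 to 129755322) was the ligand with the lowest mean TPM in both groups. It stood at 3.27, 4.04 and 6.36 CPM in SA tumors, from 88 to 783 counts, and at 11.2, 11.4 and 8.70 in WT penises, from 191 to 343 counts. The groups did not overlap, and SA tumor 3, the deepest library, was nearest to the WT samples. The 2.26-fold fall had a log2 fold change of -1.18 with an interval of -1.78 to -0.57 (adjusted p = 0.00561). The call was lost without SA tumor 2 (adjusted p = 0.0244), without WT penis 1 (0.0226), without WT penis 2 (0.0222) and with library totals (0.0209).

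Tgfa (NM_031199, chromosome 6, 86195038 to 86275744), the gene of transforming growth factor alpha, stood at 89.5, 93.5 and 75.8 CPM in SA tumors and at 102, 130.1 and 116 in WT penises. Every SA tumor was below every WT penis by a small margin. The log2 fold change of -0.43, with an interval of -0.72 to -0.14, missed the threshold (adjusted p = 0.0189). Hbegf (NM_010415), the gene of heparin-binding EGF-like growth factor, stood at 47.0, 50.6 and 47.8 CPM in SA tumors and at 36.9, 65.0 and 55.7 in WT penises. The SA tumors lay inside the range of the WT penises. Its log2 fold change was -0.12 with an interval of -0.54 to 0.31 (adjusted p = 0.623), and it was 0.05 without WT penis 2 and 0.16 with library totals, so that no direction can be given.

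Per length, on the TPM scale, Hbegf, Tgfa and the receptors made up most of the family's RNA. In SA tumors the mean TPM was 42.7 for Erbb2, 41.2 for Erbb3, 36.2 for Hbegf, 36.1 for Tgfa and 33.6 for Egfr, then 14.9 for Ereg, 14.4 for Epgn and 11.6 for Areg, and 2.95 for Btc and 1.71 for Egf. Neighbours in this order overlapped except Erbb3 and Hbegf, Egfr and Ereg, and Areg and Btc. In WT penises the order was Erbb2 (70.4), Erbb3 (47.6), Tgfa (37.8), Hbegf (30.6), Egfr (29.6), Ereg (28.1), Epgn (16.9), Btc (5.37), Areg (4.76) and Egf (3.00). There only Erbb2 and Erbb3, and Epgn and Btc, were separated from each other. Thus Erbb2 stood above every other member in every WT sample, while in SA tumors its TPM overlapped that of Erbb3. The place of Egfr rests on NM_207655 alone. Its other transcript, NM_007912, held 20.8 to 31.2 TPM in SA tumors and 16.2 to 24.1 in WT penises. With both transcripts added, Egfr stands above Erbb2 in every SA tumor and above Erbb3 in every WT penis. How reads that fit both were assigned was not tested. TPM are not TMM-scaled. On that scale the groups did not overlap for Egf, Areg, Btc and Erbb2 and overlapped for the other members. The share over all genes was not computed for TPM, so this is not read as a result about the family.

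The summed TPM of the 7 ligands was 123, 116 and 115 in SA tumors and 93.1, 144 and 143 in WT penises, so the sums overlapped. Their make-up differed more than their sum. Areg was 9.83% ± 0.638 (SD, n = 3) of the ligand TPM in SA tumors and 3.69% ± 1.09 in WT penises. Ereg was 12.6% ± 2.16 against 21.8% ± 4.62, and Hbegf 30.8% ± 1.76 against 23.9% ± 2.59. Each of these shares was without overlap between the groups. Tgfa was 30.7% ± 2.10 against 30.3% ± 2.72, a difference smaller than its spread. The summed TPM of the receptors, with Egfr from NM_207655 alone, was 125, 108 and 120 in SA tumors and 127, 163 and 153 in WT penises. That is lower in each SA tumor, but it rests on the choice of Egfr transcript. The other, NM_007912, held 31.2, 20.8 and 28.1 TPM in SA tumors and 16.2, 23.7 and 24.1 in WT penises. With it added, SA tumors 1 and 3 stand above WT penis 1, so the groups overlap.

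**Figure D3:**
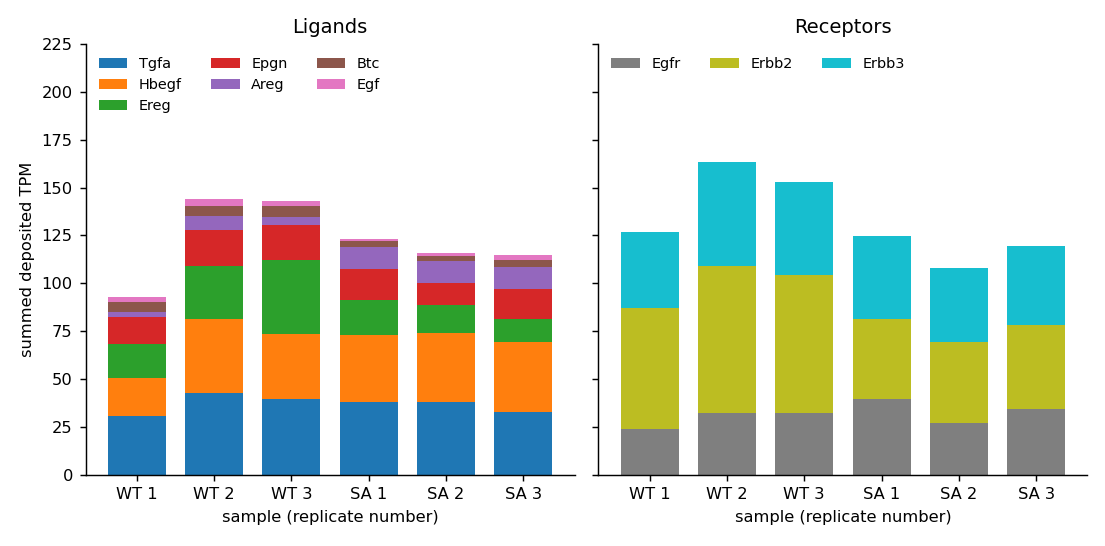
Deposited TPM of the 7 ligands (left) and 3 receptors (right), stacked for each of the 3 WT penises and 3 SA tumors. The ligand stacks overlap in height, with a larger Areg and a smaller Ereg part in the SA tumors. The receptor stacks, with Egfr from NM_207655 alone, are 108 to 125 TPM in SA tumors, below the 127 to 163 of the WT penises.

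The other ErbB receptor and its ligands were read from the list of Erbb4 and the neuregulins, of which 3 of 5 passed the filter on low counts. Erbb4 was below the level of 3 counts in every library, at no more than 0.0081 CPM among SA tumors and 0.0456 among WT penises, and a level below 0.0244 to 0.137 CPM is not detectable at this depth. Nrg2, a neuregulin that binds ErbB3 and ErbB4, stood at 2.75, 3.87 and 3.39 CPM in SA tumors and at 16.5, 14.5 and 10.3 in WT penises. All SA tumors were below all WT penises, and it fell past both thresholds (log2 fold change -2.04, adjusted p = 0.000127). Over the 17 alternatives its log2 fold change ran from -2.23 to -1.75, and it stayed below the adjusted p threshold in each. Nrg1, the best known ligand of ErbB3, had a log2 fold change of 1.00 that missed the threshold (adjusted p = 0.0190), and Nrg4 had one of 0.44 (adjusted p = 0.127). Nrg1 stood at 7.28, 4.07 and 8.54 CPM in SA tumors and at 2.98, 3.24 and 3.78 in WT penises, without overlap. Of this list, 1 gene was called higher by DESeq2, with library totals and without SA tumor 2. Nrg3, which did not pass the filter, stood at 0.260, 0.0331 and 0.284 CPM in SA tumors and at 0, 0.0334 and 0 in WT penises.

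Of the 8 sheddases and cofactors, which release the ligands from the membrane, 3 rose and 3 fell, against 20.1% and 17.5% of all genes, with a median log2 fold change of 0.11. Adam17, the main sheddase of Tgfa, Areg, Ereg, Epgn and Hbegf, stood at 65.1, 57.9 and 75.8 CPM in SA tumors and at 145, 159 and 137 in WT penises (log2 fold change -1.15, adjusted p = 0.000107). Adam10, the main sheddase of Egf and Btc, moved the other way, from 89.7, 104 and 103 CPM in WT penises to 187, 146 and 177 in SA tumors (log2 fold change 0.78, adjusted p = 0.000785). The iRhoms, which carry Adam17 to the cell surface, were split: Rhbdf1 fell (log2 fold change -1.13) and Rhbdf2 rose (1.27). Adam12 was past both thresholds (log2 fold change 3.13, adjusted p = 2.18e-05), and Adam15 fell (-1.35).

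Of 10 genes for inhibitors of the receptors, 2 rose and 1 fell, against 20.1% and 17.5% of all genes, with a median log2 fold change of 0.14. Lrig1, a membrane protein that promotes the loss of ErbB receptors, stood at 67.6, 66.6 and 59.8 CPM in SA tumors and at 20.5, 23.2 and 22.8 in WT penises (log2 fold change 1.54, adjusted p = 1.10e-05). Socs5 rose as well (log2 fold change 1.00, adjusted p = 0.000123). Errfi1, an inhibitor of the EGFR kinase that the pathway itself induces, stood at 48.5, 49.0 and 59.2 CPM in SA tumors and at 92.3, 172 and 181 in WT penises (log2 fold change -1.51, adjusted p = 0.00141). Each of these 3 genes was without overlap between the groups. The fall of Errfi1 just missed the threshold without SA tumor 2 (adjusted p = 0.0103).

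Downstream of the receptors, 5 of 19 adaptors and kinases fell, against 17.5% of all genes, and the other 14 were not called, with a median log2 fold change of -0.17. Among those that fell were Pik3r1, the regulatory subunit of PI3K (log2 fold change -1.72), the kinase gene Mapk3 (-0.62), the adaptor Gab1 (-0.58) and the catalytic subunit Pik3ca (-0.40). Library totals left 1 of these called lower and made 5 of the list higher, and 3 were called lower without WT penis 1 and 2 without WT penis 2. Pik3r1 stood at 94.7, 81.6 and 115 CPM in SA tumors and at 317, 340.2 and 304 in WT penises.

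Of the 9 genes for feedback inhibitors of the ERK cascade, 4 rose and 1 fell, against 20.1% and 17.5% of all genes, with a median log2 fold change of 0.50. Dusp4, a phosphatase of ERK, stood at 24.3, 22.7 and 20.1 CPM in SA tumors and at 0.678, 1.37 and 1.14 in WT penises, and was past both thresholds (log2 fold change 4.37, adjusted p = 3.98e-06). Spry4, a Sprouty inhibitor, stood at 30.0, 35.0 and 42.2 CPM against 2.58, 4.87 and 5.47 and was past both thresholds too (log2 fold change 3.05, adjusted p = 4.20e-05). Dusp6 (log2 fold change 1.47) and Spry2 (0.50) also rose. Of this list 3 genes in place of 4 were called higher with the replicate block. The count was also 3 without SA tumor 1, SA tumor 2, WT penis 2 or WT penis 3. Dusp4 and Spry4 kept their calls in all 17 alternatives. Dusp5, the nuclear ERK phosphatase, fell (-0.56), but this call was lost without SA tumor 1 (adjusted p = 0.0140), SA tumor 3 (0.0105), WT penis 1 (0.0180) or WT penis 2 (0.0306), with upper quartile scaling (0.0103) and with library totals (0.0750).

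Of 13 genes known to respond to ERK, 4 rose and 1 fell, against 20.1% and 17.5% of all genes, and 8 were not called, with a median log2 fold change of 1.04. Phlda1 stood at 305, 259 and 217 CPM in SA tumors and at 12.5, 10.9 and 8.79 in WT penises (log2 fold change 4.60, adjusted p = 1.78e-06). The ETS factor genes Etv4 (log2 fold change 2.58, adjusted p = 6.25e-06) and Etv5 (2.53, adjusted p = 7.95e-05) were also past both thresholds, and Ier3 rose (1.43). Ier2 fell (-0.83), but this call was lost without SA tumor 1 (adjusted p = 0.0189), SA tumor 2 (0.0154), SA tumor 3 (0.0250), WT penis 1 (0.0180) or WT penis 2 (0.0160), by limma-voom (0.0101), with upper quartile scaling (0.0125) and with library totals (0.0454). The 8 genes not called went both ways, with log2 fold changes from -4.41 for Fosb (adjusted p = 0.0427) to 1.24 for Egr2 (adjusted p = 0.0416). Many of these genes also answer to FGF and other receptors, and the list does not measure ErbB activity.

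**Figure D4:**
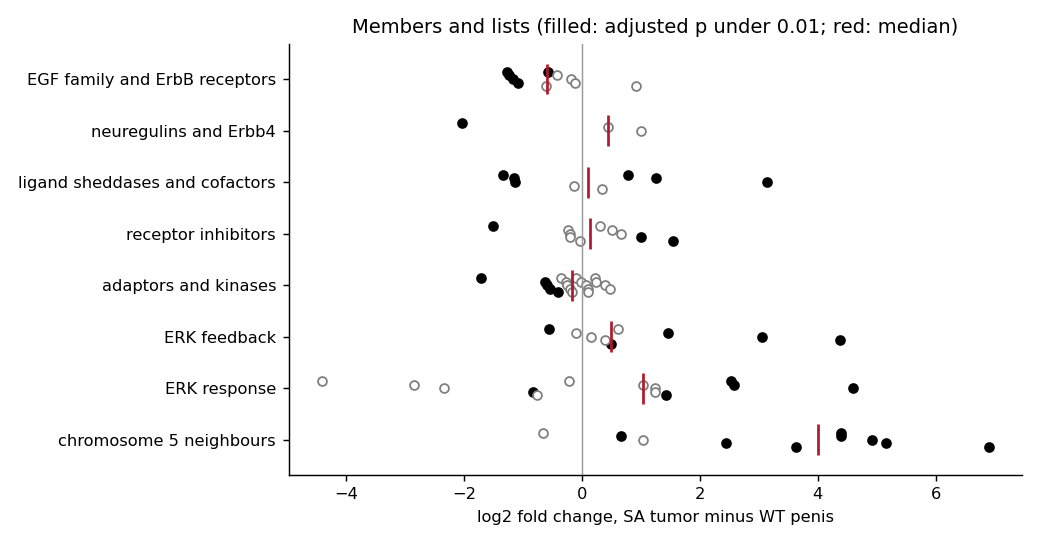
Log2 fold change of each tested gene for the members and for the lists of pathway genes and chromosome 5 neighbours, filled where the adjusted p is under 0.01, with the median of each list in red. The members spread between -1.27 and 0.91 around a median of -0.59, while the neighbours of the chromosome 5 ligand genes have a median of 4.0.

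The WT samples differed from each other in many genes of that list. Of its 13 genes, 10 were lowest in WT penis 1, 8 were highest in WT penis 2 and 4 were highest in WT penis 3. The range was widest for Fos, at 3.71, 519 and 35.5 CPM in WT penises 1, 2 and 3, against 23.7 to 29.6 in SA tumors. Other genes had another order, among them Egr3, highest in WT penis 3 at 31.1 CPM, and Junb, lowest there at 171. WT penis 1 was the lowest and WT penis 2 the highest for 6 genes of the list and for 7 of the 10 members, Areg and Hbegf among them, whereas Ereg was lowest in WT penis 1 and highest in WT penis 3. The share of all genes with these orders was not counted, so the counts are not read as particular to the list or the members. The part of this spread in the values of the members was not tested.

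**Figure D5:**
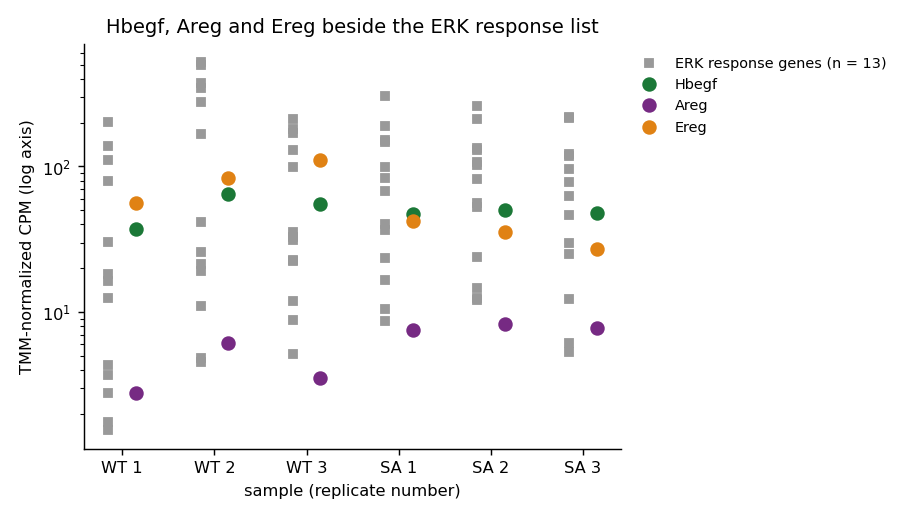
TMM-normalized CPM (log axis) of the 13 ERK response genes (grey squares) and of Hbegf, Areg and Ereg (circles) in each sample. Hbegf and Areg are lowest in WT 1 and highest in WT 2 among the WT penises, and Ereg is highest in WT 3 at 111 CPM.

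Markers of cell types moved between the groups as well. Of 6 basal epithelial markers 3 fell, among them Trp63 (log2 fold change -0.82), and 1 rose, Epcam (2.35), with sums of 9518 to 11492 CPM in SA tumors and 16003 to 19133 in WT penises. All 5 suprabasal markers fell, from 47364 to 53770 CPM in WT penises to 11151 to 18095 in SA tumors, Krt10 among them (log2 fold change -1.97). The 5 smooth muscle markers fell past both thresholds, from 1476 to 1966 CPM to 34.9 to 120.3. Fibroblast markers summed to 1285 to 4763 CPM in SA tumors and 6073 to 6355 in WT penises, with 1 of 6 called lower. That list was mixed. Its Pdgfra, not called, had a log2 fold change of 1.09 (77.9, 174 and 267 CPM in SA tumors, 81.2 to 81.6 in WT penises), and Col1a1 overlapped between the groups. Endothelial markers summed to 117 to 179 CPM in SA tumors and 176 to 209 in WT penises, with 1 of 4 called lower. The part of these cell types in the lower levels of Erbb2, Btc, Erbb3, Ereg and Egf was not tested.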

How the data were processed

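RNA-seq data of 3 SA tumors and 3 WT penises were used. Per the labels and methods, TopHat (mm10) and HTSeq were used upstream, and the authors deposited raw counts for 33068 RefSeq transcripts (24063 symbols, 4914 with several transcripts). The authors also deposited FPKM, not used here, and TPM, used for levels between genes and for ratios. Genes kept by filterByExpr (minimum 10 counts) were tested with edgeR 4.0.16 in R 4.3.3 (TMM, robust quasi-likelihood F-test, Benjamini-Hochberg adjustment over all 16336 genes). The standard error behind each 95% interval came from this fit. TPM ratios were compared by exact permutation. Alternatives were DESeq2 1.42.0, limma-voom (limma 3.58.1), other scalings, filters and transcript rows, glmTreat, a replicate block, and leaving out each sample. Replicate numbers did not pair the samples: residual correlations of same-numbered samples were -0.135, -0.105 and 0.0238. A count of 3 equals 0.0244 to 0.137 CPM, for counting error only. Members and lists were chosen with earlier results of these data known. Named from each list were genes past both thresholds and up to 4 others with the smallest adjusted p. Adam10, Pik3ca, Fos, Fosb, Egr2, Egr3, Junb, Erbb4, Nrg3 and the markers named were added after their values were seen. Some genes that this rule covers are not reported here. The files hold no coordinates, so positions and upstream windows were taken from RefSeq annotation and the GRCm38 genome.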

Additional observations from a re-analysis of the deposited data

How the results depend on the processing

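The count of members called lower, 5, became 2 with library totals only and 3 with the replicate block, and ranged from 3 to 6 when 1 sample was left out, with 3 without SA tumor 2 and 3 without WT penis 2. The count called higher, 0, became 1 by DESeq2 and 1 with library totals only, and ranged from 0 to 1 when 1 sample was left out, with 1 without WT penis 2; the member was Areg each time. The Egfr log2 fold change turned to 0.10 and that of Hbegf to 0.16 with library totals only, and Hbegf ranged from -0.33 to 0.050 when 1 sample was left out. Over 170 member values under alternatives, 151 stayed on their side of the threshold with their direction, 10 lost and 6 gained the call, and 3 turned. Library totals moved the median log2 fold change of all genes from 0.03 to 0.32, with 5248 genes higher and 1806 lower against 3283 and 2865; the cause was not tested. The replicate block, whose numbers did not pair the samples, gave 2809 and 2446; under it Egf (adjusted p = 0.0109), Ereg (0.0242) and Dusp5 (0.0164) were not called. A test against the fold threshold itself (glmTreat) left 929 genes against 2124, with 0 members in each. The 3 TPM ratios kept their direction in every alternative, and their p cannot go below 0.1. Depth limits what can be said of Erbb4, and of Nrg3 in SA tumor 2 and the WT penises.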

Other observations

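Other lists of cell type markers were read in the same fit. All 4 hair follicle markers rose past both thresholds, Tchh, the gene of trichohyalin, from 17.5 to 23.0 CPM in WT penises to 996 to 2071 in SA tumors. Of 4 tested markers of sebaceous or preputial gland 3 rose, with sums of 26.3 to 33.5 CPM in SA tumors and 18.5 to 19.4 in WT penises. The 4 leukocyte markers tested were not called, with sums of 56.5 to 181 and 63.1 to 81.7 CPM, the highest in SA tumor 3. Their median log2 fold change was 1.26. Ptprc was between 12.2 and 41.1 CPM in SA tumors and between 7.06 and 9.85 in WT penises. Itgam was between 16.7 and 48.3 CPM and between 12.2 and 16.0. Neither overlapped between the groups, as for 63.4% of the genes tested, while Cd3e and Csf1r overlapped. Skeletal muscle markers summed to 5.99 to 8.06 and 10.8 to 15.7 CPM, with 1 of 3 called lower, and adipocyte markers to at most 0.106 CPM in any sample.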
